A study of Rattus norvegicus with 6 samples.

Results

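The ERK feedback and output genes examined here were 10 of the 18923 genes counted in primary rat chondrocytes: Spry1, Spry2, Spry4, Spred1, Spred2, Dusp4, Dusp6, Etv4, Etv5 and Phlda1. They were taken by gene symbol, and each symbol stood for 1 Ensembl identifier. The set was chosen by its change between RA and CON in these same libraries, so its fold changes are descriptions and carry no test. Chondrocytes were isolated with collagenase from the cartilage of wild-type female Sprague-Dawley rats aged 24 h and used at the first or the second passage. Every culture was kept in high-glucose DMEM with 10% FBS and penicillin-streptomycin. The RA group received all-trans retinoic acid (ATRA), the vitamin A derivative that binds the nuclear RA receptors, at 1 µM for 24 h, while the CON group stayed in the same medium without it for 24 h. Each group held 3 samples described as independent, and whether they came from separate animals is not stated, so the error measures only the spread between these samples. A vehicle in CON is not mentioned, and passaged monolayer cultures differ from chondrocytes in their matrix.

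ERK is the last kinase of the RAS-RAF-MEK-ERK cascade, through which FGF, EGF and related ligands drive growth and fate decisions. An active cascade switches on genes that hold it back: the Sprouty and Spred proteins act on RAS and RAF, and the phosphatases DUSP6 and DUSP4 remove phosphate from ERK itself. ETV4 and ETV5 are ETS transcription factors of the PEA3 group that carry FGF signals into transcription. The mRNAs of several genes of the set are widely read as an index of ERK activity. In the growth plate, FGF signaling through FGFR3 and ERK restrains the growth and differentiation of chondrocytes. mRNA levels report neither the phosphorylation of ERK nor the amount of any protein, and neither was measured in these libraries.

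Promoter sequences are given first, since ETS factors are themselves among the members. RefSeq windows of 300 bases on the rat assembly GRCr8 were matched by symbol for 8 of the 10 genes, with 2 windows for Spry2 and so 9 windows in all. Dusp4 and Etv4 had no matched window. The ETS motif CCGGAA was searched as these exact letters on both strands. It lay in 3 of the 9 windows, those of Spry2, Spry4 and Phlda1, and in 15.0% of all 33469 windows. It began at position -171 for Spry2, -81 for Spry4 and -116 for Phlda1, counted from the annotated start. The nuclear receptor half-site AGGTCA lay in 1 window, the other Spry2 window, against 16.2% of all windows. Neither the AP-1 site TGANTCA (7.33% of all windows) nor a direct repeat of AGGTCA with a 5-base spacer (3 of all windows) was found in any of the 9. Such a match is a description of the letters, not a bound site. The 250 bases before the start are shown for a pair of genes with CCGGAA, set in capitals. They are also shown for Dusp6 and Etv5, which lacked CCGGAA and were likewise called. The shorter GGAA within that motif does occur in the Dusp6 and Etv5 sequences. The coordinates are those of GRCr8, while the counts rest on the build Rnor_6.0.
Spry2, chr15:89111927-89112176, minus strand: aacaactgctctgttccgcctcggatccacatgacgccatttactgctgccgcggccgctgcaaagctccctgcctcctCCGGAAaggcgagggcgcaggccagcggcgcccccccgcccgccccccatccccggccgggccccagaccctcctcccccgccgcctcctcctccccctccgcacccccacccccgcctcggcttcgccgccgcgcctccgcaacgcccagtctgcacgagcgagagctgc
Phlda1, chr7:48853440-48853689, plus strand: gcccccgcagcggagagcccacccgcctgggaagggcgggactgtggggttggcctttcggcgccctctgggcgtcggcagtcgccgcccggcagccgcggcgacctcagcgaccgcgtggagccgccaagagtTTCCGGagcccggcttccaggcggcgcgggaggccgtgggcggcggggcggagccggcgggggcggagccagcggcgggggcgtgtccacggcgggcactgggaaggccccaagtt
Dusp6, chr7:35979354-35979603, plus strand: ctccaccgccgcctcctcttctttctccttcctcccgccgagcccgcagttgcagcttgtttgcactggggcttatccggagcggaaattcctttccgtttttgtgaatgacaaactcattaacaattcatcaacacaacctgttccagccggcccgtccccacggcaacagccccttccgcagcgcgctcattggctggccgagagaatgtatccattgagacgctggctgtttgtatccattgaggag
Etv5, chr11:92113013-92113262, plus strand: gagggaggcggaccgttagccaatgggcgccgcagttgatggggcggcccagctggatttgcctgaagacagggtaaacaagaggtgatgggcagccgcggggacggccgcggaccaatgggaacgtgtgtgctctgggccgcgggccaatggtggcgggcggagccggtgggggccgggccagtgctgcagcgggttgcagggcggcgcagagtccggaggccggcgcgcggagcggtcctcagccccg

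The 6 libraries held between 29370025 and 38007486 counted reads. On principal components of log2 CPM (counts scaled to a common library size), the first component (46.3% of the variance) parted RA from CON. CON sample 1 stood apart from the other CON samples on the second (26.4 against -16.8 and -23.8, with 21.6% of the variance). It also lay further out on the first (-36.9 against -17.5 and -15.2). Cyp26a1, the RA-degrading enzyme that RA induces, was at 0.562, 0.240 and 0.366 FPKM in CON and at 4.65, 3.47 and 3.92 in RA, as the labels have it. The culture expressed its defining cartilage genes: the summed FPKM of 10 chondrocyte markers ran from 7873 to 9782 in CON and from 4979 to 5304 in RA, and 8 of the 10 were called lower in RA by the rule given below, against 2.29% of all genes tested. For 9 fibroblast and perichondrium markers the sums were 3857 to 5034 in CON and 4990 to 5236 in RA, for 7 osteoblast markers 12.0 to 13.6 and 12.5 to 13.3, for 7 macrophage markers 13.7 to 14.9 and 16.3 to 17.7, for 6 endothelial markers 5.49 to 8.03 and 6.22 to 6.85, and for 5 skeletal muscle markers 9.08 to 10.6 and 8.36 to 10.3. Emcn had 0 reads in every library and Cdh5, Adgre1, Aif1 and Actc1 at most 1. Other genes of the same lists were expressed: Cd14 had 612 to 873 reads, Cd68 42 to 48, Egfl7 236 to 441, Des 296 to 481 and Tnnt3 65 to 183. Of the 9 fibroblast, 5 osteoblast, 4 macrophage, 2 endothelial and 2 muscle markers tested, 3 were called, against 4.96% of all genes tested: the osteoblast marker Ibsp higher in RA (log2 fold change 1.47), and the fibroblast and perichondrium marker Postn (-1.28) and the muscle marker Tnnt3 (from a mean of 4.71 to 2.36 FPKM) lower. Prrx1 (0.49), Pdgfra (0.44) and Twist1 (0.43) of the fibroblast list were higher in RA but under the fold threshold. Alpl of the osteoblast list (-0.42) was lower in RA and likewise under it. Dpt of the fibroblast list (-0.73) was lower but did not pass the adjusted p. These markers were named after their values were seen. The part of these marker shifts in the results below was not tested. In bulk RNA, more RNA per cell and more cells of a kind cannot be told apart.

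All 10 genes had higher mean levels in RA than in CON. Genes are called when edgeR's quasi-likelihood test gave a Benjamini-Hochberg adjusted p below 0.05 over all 13438 genes tested and a log2 fold change (log2FC, RA over CON, given ± its standard error, SE) beyond 0.58. By this rule 7 of the 10 genes were called, each higher in RA, against 2.67% of all genes tested called higher and 4.96% called in either direction. The 7 were Spry2, Spry4, Dusp4, Dusp6, Etv4, Etv5 and Phlda1. The median log2 fold change of the 10 genes was 1.17, and that of all genes tested was -0.0057. In 9 of the 10, every RA sample lay above every CON sample in normalized CPM, as it did in 16.8% of all genes tested. These counts describe the set and support nothing further, because the same contrast chose it. All 10 passed the filter on low counts, and the lowest count of any of them was 38 reads, for Spry1 in CON sample 2. Without CON sample 1 the number called was again 7, and the median was 1.11.

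**Figure D1:**
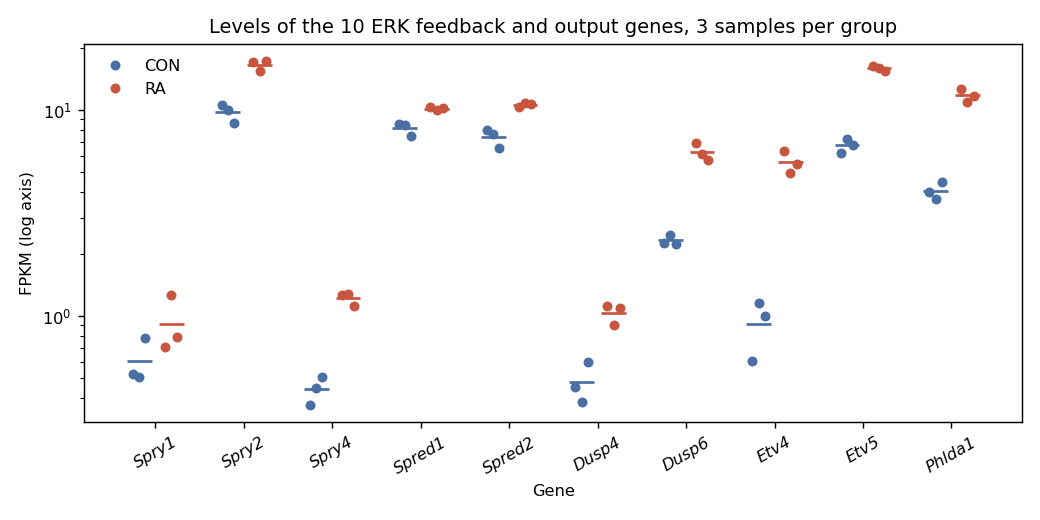
FPKM of the 10 genes (log axis) in the 3 CON and the 3 RA samples; points are samples and bars the group means. Apart from Spry1, where the groups overlap, each RA point lies above all CON points of the same gene.

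Of the 10 genes, Etv4 showed the widest separation. Etv4, the founding PEA3 factor, was at 0.606, 1.15 and 1.00 FPKM in CON samples 1, 2 and 3 and at 6.33, 4.97 and 5.47 in RA samples 1, 2 and 3. Every RA sample lay far above the CON samples, and the lowest RA sample stood 4.33-fold above the highest CON sample in normalized CPM. The log2FC was 2.59 ± 0.222, or 6.01-fold, the greatest of the set. Etv5 was already well expressed, at 6.19, 7.21 and 6.77 FPKM in CON, and stood at 16.4, 16.0 and 15.4 in RA. Its groups were tight and far apart, with a log2FC of 1.23 ± 0.0744, or 2.35-fold. Etv1, the third PEA3 factor and no member of the set, was called higher in RA, from 1.80 ± 0.302 to 4.23 ± 0.163 FPKM (SD over 3 samples a group), with a log2FC of 1.22 ± 0.117 (adjusted p = 4.22e-04, edgeR).

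Dusp6 encodes the cytoplasmic phosphatase most specific for ERK. Its FPKM was 2.27, 2.47 and 2.25 in CON and 6.89, 6.13 and 5.72 in RA. The CON samples nearly coincided and the RA samples all lay far above them, at a log2FC of 1.41 ± 0.108, or 2.66-fold. Dusp4, a nuclear phosphatase that is itself induced by ERK, was scarce, at 0.450, 0.383 and 0.596 FPKM in CON and 1.12, 0.899 and 1.10 in RA. The groups did not overlap, and the log2FC was 1.10 ± 0.212. Its counts were 46 to 90 reads in CON and 105 to 135 in RA. It was not called when CON sample 2 (0.96), RA sample 1 (1.05) or RA sample 3 (1.06) was omitted, nor in limma on log2(FPKM + 1) (0.47), and a filter of 1 FPKM in 3 samples removed it.

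Of the Sprouty genes, Spry2 was the main form, at 10.6, 9.96 and 8.63 FPKM in CON and 17.0, 15.4 and 17.2 in RA. Its groups were separate, and its log2FC of 0.76 ± 0.0929, or 1.69-fold, was the smallest among the 7 called. Spry4 was at 0.370, 0.446 and 0.503 FPKM in CON and at 1.26, 1.28 and 1.12 in RA. Every RA sample was at least 2.19-fold above the highest CON sample in normalized CPM, and the log2FC was 1.45 ± 0.170, or 2.74-fold. Spry1 was at 0.523, 0.506 and 0.782 FPKM in CON and at 0.703, 1.26 and 0.791 in RA. CON sample 3 lay above RA sample 1, and RA sample 2 stood far above the rest of its group. The log2FC was 0.58 ± 0.296, and the gene passed neither the adjusted p nor, before rounding, the fold threshold. Without RA sample 2 the log2FC was 0.28.

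The Spred proteins are membrane-bound relatives of Sprouty that bring the RAS inhibitor neurofibromin to RAS. Spred1 was at 8.58, 8.43 and 7.48 FPKM in CON and at 10.3, 9.98 and 10.2 in RA. Spred2 was at 7.95, 7.63 and 6.53 FPKM in CON and at 10.3, 10.7 and 10.6 in RA. In both genes the groups were separate but close, with log2FC values of 0.30 ± 0.0879 and 0.51 ± 0.0970. Spred1 passed neither the adjusted p nor the fold threshold, and Spred2 missed the fold threshold alone. The third family gene, Spred3, which was not in the set, was called higher in RA, from 1.87 ± 0.286 to 4.12 ± 0.171 FPKM (SD over 3 samples a group), with a log2FC of 1.13 ± 0.145 (adjusted p = 0.00204, edgeR).

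Phlda1 encodes a pleckstrin homology-like protein that is used as a transcriptional readout of MEK and ERK. It was at 4.01, 3.68 and 4.47 FPKM in CON and at 12.7, 10.9 and 11.7 in RA. The RA samples were all at least 2.40-fold above the highest CON sample in normalized CPM, and the log2FC was 1.52 ± 0.112, or 2.87-fold. Phlda2 and Phlda3, its family relatives, were not called, with log2FC values of -0.20 ± 0.531 and 0.22 ± 0.0582. Of 13 family paralogs outside the set, 11 were tested, and Etv1 and Spred3 were the 2 called, both higher in RA, against 2.67% of all genes tested. The median log2 fold change of the 11 was 0.22. None of the 6 other MAPK phosphatase genes tested beside Dusp1 (Dusp5, Dusp7, Dusp8, Dusp9, Dusp10 and Dusp16) was called, with log2 fold changes from -0.37 to 0.45. Dusp1, a nuclear phosphatase for all 3 MAPK branches, had a log2FC of 0.51 ± 0.0651, under the fold threshold. Phlda2, Phlda3 and these phosphatases were named after their values were seen.

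The levels of genes can be compared on the FPKM scale, which divides by gene length. In CON the order of mean FPKM ran Spry2, Spred1, Spred2, Etv5, Phlda1, Dusp6, Etv4, Spry1, Dusp4 and Spry4, from 9.73 down to 0.440. The samples of neighbours overlapped for Spred1 and Spred2, for Spred2 and Etv5, for Etv4 and Spry1, for Spry1 and Dusp4, and for Dusp4 and Spry4. In RA the order was Spry2, Etv5, Phlda1, Spred2, Spred1, Dusp6, Etv4, Spry4, Dusp4 and Spry1, from 16.5 down to 0.917. There Spry2 and Etv5, Spred2 and Spred1, Dusp6 and Etv4, and Dusp4 and Spry1 overlapped. Etv5 and Phlda1 had thus moved above both Spred genes, and Etv4, which had overlapped Spry1 in CON, lay above every Spry1 sample. The summed FPKM of the 10 genes was 40.8 ± 1.56 in CON and 80.0 ± 2.75 in RA (SD over 3 samples a group).

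Within families the make-up shifted unevenly. Etv4 made up 6.80% to 11.3% of the summed FPKM of the PEA3 group (Etv1, Etv4 and Etv5) in CON and 19.8% to 23.3% in RA. Etv5 remained the main PEA3 gene, at 69.5% to 73.0% in CON and 60.4% to 63.7% in RA. The PEA3 sum itself was 9.45 ± 0.641 FPKM in CON and 25.8 ± 1.21 in RA (SD over 3 samples a group). Spry2 held 87.0% to 92.2% of Sprouty FPKM in CON and 85.8% to 90.0% in RA, and these ranges overlapped. The share of Spry4 was 3.22% to 5.08% in CON and 5.85% to 7.15% in RA. The Sprouty sum was 10.8 ± 0.794 FPKM in CON and 18.7 ± 0.663 in RA. In the Spred family the share of Spred3 was 8.97% to 13.3% in CON and 16.1% to 17.2% in RA, and that of Spred2 overlapped between the groups.

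**Figure D2:**
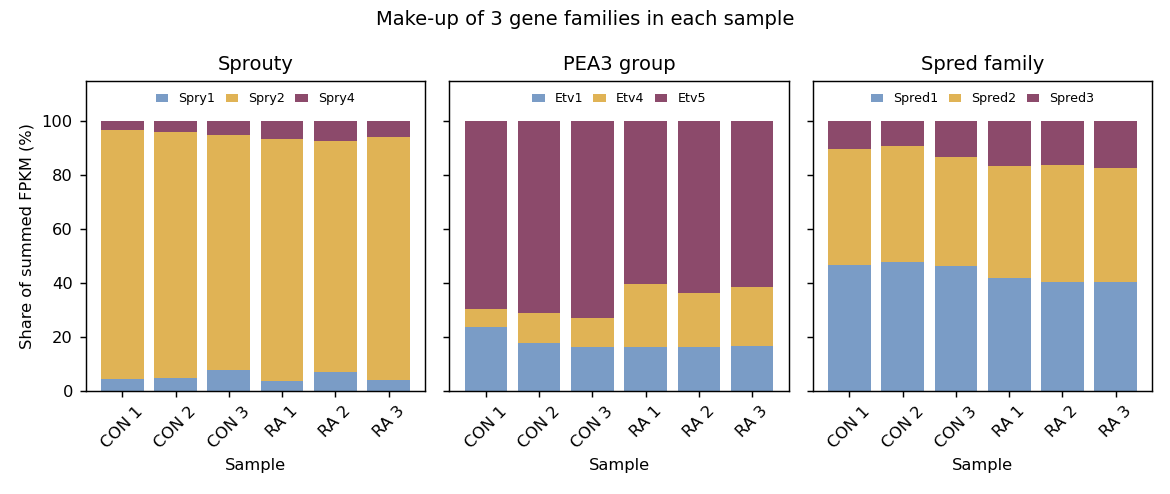
Share of summed FPKM (percent, from 0) that each gene takes in its family, in each of the 6 samples. The Etv4 share is 19.8% to 23.3% in the RA samples and at most 11.3% in the CON samples, while Spry2 stays above 85% of Sprouty FPKM in all 6.

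The spread between samples was small beside these differences for most of the set. The coefficient of variation of normalized CPM ran from 4.53% (Dusp6) to 30.6% (Etv4) in CON and from 1.13% (Spred1) to 32.9% (Spry1) in RA. Among RA samples, RA sample 1 held the highest value for 6 of the 10 genes, namely Spred1, Dusp4, Dusp6, Etv4, Etv5 and Phlda1, whereas Spry2 was highest in RA sample 3 and Spry1, Spry4 and Spred2 in RA sample 2. Among CON samples the highest values were divided, with 3 genes in sample 1, 3 in sample 2 and 4 in sample 3. In normalized CPM, Etv4, Etv5, Dusp6 and Spry4 were lowest in CON sample 1. When single samples were omitted, the log2FC lay between 2.36 and 2.76 for Etv4, 1.17 and 1.28 for Etv5, 1.34 and 1.47 for Dusp6, 1.45 and 1.61 for Phlda1, and 1.34 and 1.58 for Spry4. For Spry1 it lay between 0.28 and 0.83, the widest range of the set.

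**Figure D3:**
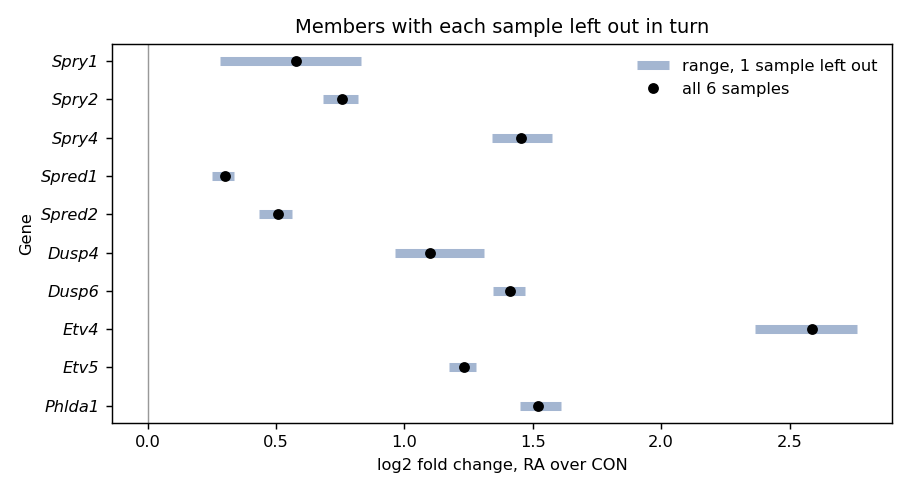
Log2 fold change (RA over CON, edgeR) of each gene with all 6 samples (points) and its range when each sample is left out in turn (bars). No bar reaches 0, and the bar of Spry1, from 0.28 to 0.83, is the longest.

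Further ERK outputs that were not in the set were examined by a list of 20 genes, of which 19 were tested. Of these, 5 were called, each higher in RA (2.67% of all genes tested were called higher), and the median log2 fold change was 0.37. They included Hmga2, a chromatin protein, with a log2 fold change of 1.43, Fosl1, an AP-1 subunit induced late by ERK, with 1.41, Ccnd1, the cyclin D1 gene, with 0.98, and Epha2, an Eph receptor, with 0.88. Fosl1 went from 5.08 ± 0.266 to 13.7 ± 1.49 FPKM (SD over 3 samples a group, adjusted p = 1.27e-04, edgeR). Ccnd1 was the most abundant of them and went from 90.7 ± 3.55 to 180.02 ± 6.20 FPKM (SD over 3 samples a group, adjusted p = 3.77e-05, edgeR). Epha2 went from 14.9 ± 1.52 to 27.8 ± 0.945 FPKM (SD over 3 samples a group, adjusted p = 4.91e-04, edgeR). Of the 5, Hmga2 had the largest standard error, 0.235, with 5.06 ± 1.69 FPKM in CON and 13.8 ± 0.904 in RA (SD over 3 samples a group, adjusted p = 0.00652, edgeR). The immediate early genes Fos and Myc, named after their values were seen, were not called, with log2FC values of -0.18 ± 0.169 and -0.14 ± 0.0670. Egr1, likewise named afterwards, had 0.50 ± 0.0999 and lay under the fold threshold. Epha4, also named afterwards, was lower in RA and not called, at -0.36 ± 0.0984. All 5 called genes were called whichever of the 6 samples was left out.

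**Figure D4:**
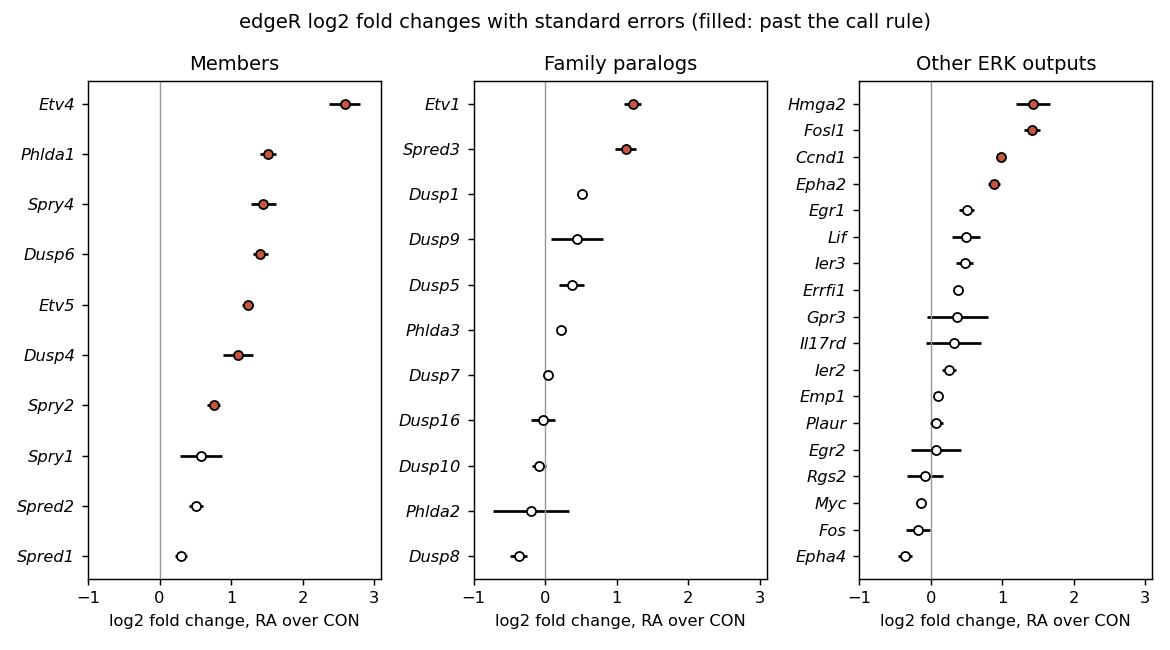
Log2 fold changes (RA over CON) with standard errors from edgeR for the 10 genes, 11 tested family paralogs and other tested ERK outputs; filled points passed the call rule. Filled points lie at 0.76 or above in all 3 panels, and Etv4 stands at 2.59.

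The cascade itself was examined next. Of 30 genes from the adaptors (Shc1, Grb2) through RAS, RAF and MEK to ERK and its RSK kinases, all were tested and 1 was called, higher in RA, a share near the 2.67% of all genes called higher, with a median log2 fold change of 0.053. This was Ksr1, a scaffold of RAF and MEK, at 0.578 ± 0.102 FPKM in CON and 0.953 ± 0.0276 in RA (SD over 3 samples a group), with a log2FC of 0.71 ± 0.175 (adjusted p = 0.0378, edgeR, 0.0297 to 0.136 with each sample left out). Its call was lost on omitting CON sample 3 (0.60) or any of the RA samples (0.72, 0.73 and 0.69 for samples 1, 2 and 3). It was also lost in limma on log2(FPKM + 0.1) (0.65) and on log2(FPKM + 1) (0.31), and a filter of 1 FPKM in 3 samples removed the gene. Mapk3, an ERK gene named after its values were seen, had a log2FC of 0.16 ± 0.0612.

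Of 16 FGF ligand and receptor genes found in the files, 12 were tested, and 4 were called lower and 1 higher in RA, against 2.29% of all genes called lower. Fgfr4 fell from 2.13 ± 0.377 to 0.675 ± 0.202 FPKM (SD over 3 samples a group), a log2FC of -1.66 (adjusted p = 0.00401, edgeR). Fgfrl1, a receptor without a kinase domain, had -0.74 ± 0.0818 (adjusted p = 9.23e-04, edgeR), and both stayed called with each sample left out. Fgfr3 fell from 92.4 ± 16.5 to 59.0 ± 2.30 FPKM (SD over 3 samples a group), a log2FC of -0.66 ± 0.124 (adjusted p = 0.0121, edgeR). Calls over all genes numbered 667, against 755, 518 and 656 without CON samples 1, 2 and 3 and 480 to 504 without an RA sample. Fgfr3 lost its call in most fits with 1 sample left out. It was -0.80 and called without CON sample 1, and not called on omitting CON sample 2 (-0.59), CON sample 3 (-0.58) or any of the RA samples (-0.62, -0.68 and -0.67 for samples 1, 2 and 3). Fgf21 had -1.27 (adjusted p = 0.0147, edgeR), lost on omitting CON sample 2 (-1.29), CON sample 3 (-1.17), RA sample 2 (-1.18) or RA sample 3 (-1.25). Fgf1 was the gene called higher, at 0.94 (adjusted p = 0.0378, edgeR), lost on omitting CON sample 2 (0.90) or any of the RA samples (0.83, 1.07 and 0.92 for samples 1, 2 and 3) and in limma on log2(FPKM + 0.1) (0.75) and on log2(FPKM + 1) (0.26). A filter of 1 FPKM in 3 samples removed it. Fgfr1, named after its values were seen, had the highest FGF receptor level in RA, at 134 ± 3.78 FPKM against 93.8 ± 5.91 in CON (SD over 3 samples a group), and its log2 fold change of 0.51 was under the fold threshold.

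The 9 tested genes of 11 EGF ligands and receptors all had positive log2 fold changes, with a median of 0.53, and 1 was called higher, against 2.67% of all genes tested. Ereg, which encodes the EGFR ligand epiregulin, rose from 1.58 ± 0.135 to 3.93 ± 0.415 FPKM (SD over 3 samples a group), a log2FC of 1.30 ± 0.142 (adjusted p = 8.48e-04, edgeR), and was called whichever sample was left out. In 8 of the 9, every RA sample was above every CON sample in normalized CPM, against 16.8% of all genes tested.

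**Figure D5:**
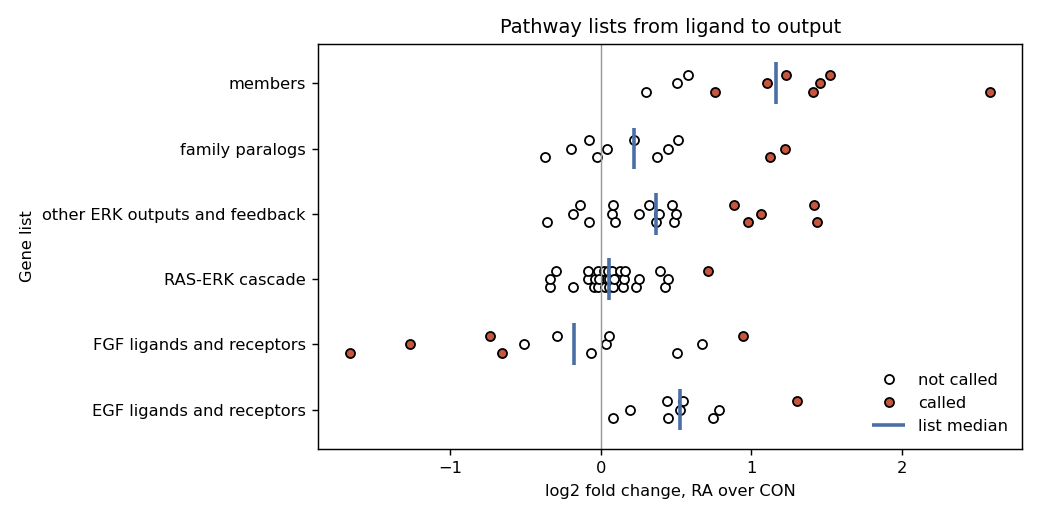
Log2 fold change (RA over CON) of every tested gene in 6 lists; filled points passed the call rule and blue bars are list medians. The median is 1.17 for the 10 genes, 0.053 for the 30 cascade genes and -0.18 for the 12 FGF genes.

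The genes whose log2 CPM followed Spry4 most closely over the 6 samples, among 11342 genes with a mean FPKM of at least 1, were Asf1b, Crim1, Ace, Bmp4 and Triobp (Pearson r from 0.996 to 0.999). For Dusp6 they were Glb1l2, Ccnd1, Gadd45a, Col8a1 and Cd44 (r from 0.996 to 0.998). With only 2 groups of 3 samples such values mostly restate the gap between RA and CON, so they are given as a description. Of the members above the same FPKM floor, which left out Spry1, Spry4 and Dusp4, Etv5 was the one closest to Spry4 (r = 0.991) and to Dusp6 (r = 0.995).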

How the data were processed

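Poly(A) RNA of 3 CON and 3 RA chondrocyte cultures was sequenced on the Illumina HiSeq after NEBNext Ultra library preparation. Groups and sample numbers came from the sample titles. Per the labels, HISAT2, HTSeq 0.13.5 and the build Rnor_6.0 were used. The annotation, the strand setting and the handling of shared reads are not given in the sources used here, so reads of overlapping or antisense genes cannot be told apart. The authors deposited a raw count per gene and an FPKM value per gene. FPKM divided each count by 1 gene length and by that library’s summed counts.

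edgeR 4.0.16 (TMM, filterByExpr with a minimum count of 10, glmQLFit and glmQLFTest, no covariates) was run on the counts of all 6 samples, and 13438 of 18923 genes were tested. A call needed an FDR (Benjamini-Hochberg) under 0.05 together with an absolute log2 fold change over 0.58, which joins the FDR of the study's results to the fold change of its methods. Standard errors came from the F statistic. FPKM served for levels, as mean ± SD. Total counts were 30170909 to 38007486 in CON and 29370025 to 30952882 in RA. Every pair of replicates differed by more than sampling noise. The chi-square per degree of freedom was 39.4 and 63.5 for the pairs with CON sample 1 and 6.40 to 8.13 for the others. The fits were tested on simulated data. The genes and lists were chosen with earlier results of these data known. The genes named were all members, called genes of each pathway list (at most 6 per list), Cyp26a1 and the 5 genes closest in pattern to Spry4 and to Dusp6, and others are marked. Alternatives were DESeq2 1.42.0, DESeq2 size factors, no filter, a floor of 1 FPKM that 3 samples had to reach, limma 3.58.1 on log2(FPKM + 0.1) and log2(FPKM + 1), other call rules, a replicate block and each sample left out in turn. No interval or chance test over the members was made. Protein sequences were not used here. Some genes of the lists are counted but not reported here by name.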

Additional observations from a re-analysis of the deposited data

How the results depend on the processing

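No log2 fold change of a member was negative in any of the 138 values over the main fit and the alternatives. All these values rest on the same 6 samples whose contrast chose the members, so their sign is a description and no test. Spry2, Spry4, Dusp6, Etv4, Etv5 and Phlda1 were called under the main rule and all 15 alternatives. Between 6 and 7 members were called with each sample left out, where calls over all genes ran from 480 to 755. The median of the members was 1.32 with a floor of 1 FPKM that 3 samples had to reach, which dropped 2 scarce genes, and 0.67 in limma on log2(FPKM + 1), where the added 1 compresses low genes; with each sample left out it lay between 1.11 and 1.28. Without the fold threshold, 8 members (Spred2 in addition), 8 of the other ERK outputs, 4 cascade genes and 3 EGF genes were called, and by unadjusted p with the fold threshold 2 EGF genes. The number of cascade genes called was 0 with the FPKM filter and in both limma fits, and 0 to 1 with each sample left out. The number of FGF genes called was 2 to 5 with each sample left out. Over all genes, 667 were called, against 434 in limma on log2(FPKM + 1), 1319 without the fold threshold and 1017 by unadjusted p.

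The deviations of CON and RA samples with the same number were close to uncorrelated (0.093, -0.012 and 0.012), and 3 of 6 samples correlated best with their own number. With 3 samples a group these values cannot decide whether the numbers pair the samples. With the replicate block, 684 genes and 7 members were called, the median of the members was 1.18, and no list count changed by more than 1.5 times. Low counts limit Spry1, Spry4, Dusp4 and Etv4 in CON, each under 100 reads per sample.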
